A study of Homo sapiens with 42 samples.

Results

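HAP1 cells treated with THZ531 were compared with HAP1 cells treated with YKL at 2 µM, each for 24 h. The comparison takes 6 of the 42 libraries of the series, 3 per compound, chosen by their treatment and cell line labels with no use of measured values. HAP1 is an adherent, near-haploid human line that was derived from a chronic myeloid leukaemia, and the WT line used here carries unaltered CDK7. THZ531 is a covalent inhibitor of the kinases CDK12 and CDK13. YKL is the compound name in the treatment labels, read here as the covalent CDK7 inhibitor of the series title. The labels give no dose for THZ531, so the compounds cannot be set at matched doses or at matched effect. Groups used beside these 6 libraries were the WT line with DMSO, the WT line with YKL at 500 nM, and the C312S line with THZ531 or with YKL at 2 µM, each 3 libraries at 24 h. The C312S line has the CDK7 cysteine that covalent CDK7 inhibitors bind replaced by serine, and the number of clones behind it is not stated in the labels. Whether the 3 libraries of a treatment are separate cultures is not stated, and p-values reflect only how much these libraries vary, possibly for technical reasons.

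CDK7, with cyclin H and MNAT1, forms the CDK-activating kinase, which phosphorylates the cell cycle CDKs on their activation loop and, as part of TFIIH, the C-terminal domain of RNA polymerase II at promoters. CDK12 and CDK13, each with cyclin K, phosphorylate the same domain during elongation, and loss of CDK12 is known to make long genes end early at intronic polyadenylation sites, with DNA repair genes among those reported to fall. The comparison sets the polyadenylated RNA of cells under the one kind of inhibitor against that of cells under the other, without passing through the untreated state.

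Values are FPKM, fragment numbers scaled to transcript length and library size. Differences are THZ531 minus YKL on the log2(FPKM + 1) scale, which understates the difference of low genes, and their tests are those of limma over 12816 genes with Benjamini-Hochberg adjusted p. Library totals were 525639 to 535104 FPKM over all genes with THZ531 and 447938 to 460991 with YKL, and 11694 to 11739 genes against 12032 to 12078 genes reached 1 FPKM. The deposited table holds no counts, and the total reads per library are unknown. The steps between values of 57 low genes put the reads behind 1 FPKM in THZ531 replicate 2 at 4.06 times those of replicate 1, from 9 genes at the lowest step, and the other 4 libraries between 0.967 and 1.95 times. Pearson correlation across genes was at least 0.973 within a group and 0.934 to 0.943 between the groups, and 0 pairs of libraries held identical values. Of 24 blood cell marker genes, 21 were under 1 FPKM in the THZ531 group and 22 in the YKL group. Among them PTPRC, CD3E, MPO, GATA1 and SPI1 were at or near 0 in all 6 libraries in spite of the leukaemia label. Other members were present. HBA1 had 7.72 to 8.07 FPKM with THZ531 and 3.20 to 7.71 with YKL, and CORO1A had 3.70 to 4.38 and 3.09 to 3.44. HBA2 reached 1.04 FPKM with THZ531 and 0.401 with YKL. The summed level of the blood list was 13.7 to 15.1 FPKM with THZ531, 7.90 to 12.2 with YKL and 16.8 to 18.6 with DMSO. Of 23 epithelial and fibroblast markers, 10 reached 1 FPKM in each group, with sums of 465 to 482, 408 to 414 and 532 to 600 FPKM in the same order, of which vimentin gave 374 to 387 FPKM with THZ531 and 303 to 314 with YKL. The part of these marker levels in the differences below was not tested.

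THZ531 and YKL left the cells with different levels of most expressed genes. Of the 12816 genes tested, 8736 differed at an adjusted p under 0.05 (68.2%), 4495 of them higher with THZ531 (35.1%) and 4241 higher with YKL (33.1%). Most differences were small. Differences of at least 1 on the log2 scale were called for 242 genes higher with THZ531 (1.89%) and for 451 genes higher with YKL (3.52%). The median over all tested genes was 0.01, and the libraries of a group had a median SD of 0.058 log2 with THZ531 and 0.062 with YKL. The division between the directions rests on the scale of the deposited values. THZ531-higher genes were 51.5% of calls as deposited, 28.7% with libraries scaled to equal total FPKM (all-gene median -0.17) and 68.6% with libraries scaled to the spike-in RNAs (all-gene median 0.18). Relative to the genes, the spike-in RNAs stood at -0.691 ± 0.150 log2 with THZ531 and -0.469 ± 0.166 with YKL (SD, n = 3 each), a difference of -0.22 (two-sided exact permutation test p = 0.2, where 0.1 is the smallest that 3 against 3 libraries allow). For the same quantity the DMSO libraries had -0.615 ± 0.077 (SD, n = 3).

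The genes that fire and unwind replication origins were higher with THZ531. Of 27 tested genes of the replicative helicase and its loading factors, 22 were higher with THZ531 and 2 lower, with a median of 0.62. That median was 0.41 under total FPKM scaling and 0.80 under spike-in scaling. MCM6, a subunit of the MCM helicase, measured 108, 113 and 111 FPKM in the THZ531 libraries and 44.9, 41.8 and 45.1 in the YKL libraries. DMSO cells had 113 ± 3.13 FPKM of MCM6 (SD, n = 3), so that the THZ531 level lay near the untreated level and the YKL level well under it. The MCM6 difference was 1.31 ± 0.04 (SE; adjusted p = 2.55e-23). MCM7, another helicase subunit, had 196, 189 and 196 FPKM with THZ531 against 86.2, 93.0 and 83.4 with YKL, a difference of 1.14 ± 0.04 (SE; adjusted p = 1.11e-20), and 225 ± 5.84 with DMSO. MCM4 differed by 0.68 (adjusted p = 4.48e-21). Libraries that do not overlap were a condition for naming these 3 genes, met by 38.6% of tested genes on the THZ531 side and 36% on the YKL side. The exceptions in direction were GINS4, a subunit of the GINS complex of the active helicase, and ORC3, a subunit of the origin recognition complex. GINS4 measured 11.9, 12.2 and 11.5 FPKM with THZ531 and 23.3, 22.9 and 23.1 with YKL (difference -0.90, adjusted p = 2.06e-17), beside 19.6 ± 0.754 with DMSO. ORC3 was at 25.3 ± 0.743 FPKM with THZ531, 43.0 ± 2.14 with YKL and 38.2 ± 1.11 with DMSO (SD, n = 3 each). For GINS4 and ORC3 it was thus the THZ531 libraries that lay under the untreated level.

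Promoters of such genes are known for binding sites of E2F factors, and promoters of mitotic genes for the cell cycle homology region (CHR). The letters TTGGCGC or TTCGCGC were searched as an E2F motif and TTTGAA as a CHR motif, on both strands, in the 250 bases before the annotated start (RefSeq, GRCh38.p14). E2F letters were in 4 of 22 helicase and origin promoters (18.2%) and CHR letters in 29 of 53 G2 and mitosis promoters (54.7%), beside 7.54% and 7.93% of the 9797 tested genes with a promoter in the table. E2F letters were also in 5 of 31 promoters of the DNA synthesis list (16.1%), 7 of 53 of the G2 and mitosis list (13.2%), 2 of 15 of the small nucleolar RNA host genes (13.3%) and 2 of 65 of the ribosomal protein genes (3.08%). Among the 6 lists searched the highest share was that of the E2F factors, cyclins and CDK inhibitors, at 7 of 22 (31.8%), whose members did not share a direction. Within the G2 and mitosis promoters, genes with CHR letters had a median difference of 0.87 (29 genes) and genes without them 0.75 (24 genes). The promoters of MCM6, MCM7 and the condensin gene NCAPD2 are shown as examples that hold such letters, in capitals, and were chosen for holding them among genes that the rule for naming picked. NCAPH and KIF20A, picked from the G2 and mitosis list by the same rule, held neither motif. In MCM6 each capital stretch holds an overlapping match on either strand, starting 151, 148, 89 and 86 bases before the start. The MCM7 match starts 8 bases and the NCAPD2 match 145 bases before it. A match describes the letters and does not show binding.
MCM6, chr2:135876444-135876693, minus strand: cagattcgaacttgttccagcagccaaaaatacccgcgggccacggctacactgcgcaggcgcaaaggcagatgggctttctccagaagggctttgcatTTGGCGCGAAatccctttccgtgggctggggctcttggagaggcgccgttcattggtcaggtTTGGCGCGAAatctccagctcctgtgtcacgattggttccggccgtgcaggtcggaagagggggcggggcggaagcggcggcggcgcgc
MCM7, chr7:100101398-100101647, minus strand: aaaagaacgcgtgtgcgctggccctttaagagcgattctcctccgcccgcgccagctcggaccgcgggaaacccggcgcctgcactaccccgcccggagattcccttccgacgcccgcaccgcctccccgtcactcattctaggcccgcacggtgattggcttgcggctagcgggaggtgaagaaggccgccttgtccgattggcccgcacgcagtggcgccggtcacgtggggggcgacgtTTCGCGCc
NCAPD2, chr12:6493852-6494101, plus strand: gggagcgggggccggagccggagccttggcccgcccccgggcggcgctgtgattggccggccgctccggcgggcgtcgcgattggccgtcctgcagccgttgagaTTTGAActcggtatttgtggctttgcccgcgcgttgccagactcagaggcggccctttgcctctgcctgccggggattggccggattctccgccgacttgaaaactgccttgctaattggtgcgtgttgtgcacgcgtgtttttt

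DNA synthesis enzymes and the suppliers of their nucleotides followed the helicase. Of 35 tested genes 27 were higher with THZ531 and 3 lower, with a median of 0.54, which was 0.33 under total FPKM scaling (8 lower) and 0.72 under spike-in scaling (0 lower). POLA1, the catalytic subunit of DNA polymerase alpha, had 35.9, 37.5 and 37.6 FPKM with THZ531 and 18.6, 16.3 and 16.7 with YKL (difference 1.06, adjusted p = 9.66e-19). RRM2, the small subunit of ribonucleotide reductase, had 156, 164 and 161 FPKM with THZ531 and 86.4, 87.5 and 87.6 with YKL (0.87, adjusted p = 4.85e-21). TYMS, thymidylate synthase, differed by 0.78. POLA1 and RRM2 too were named on condition that their libraries did not overlap, as held for 38.6% of tested genes on the THZ531 side. DMSO cells had 34.4 ± 0.549 FPKM of POLA1 and 187 ± 7.29 of RRM2. RPA2 and RPA3, subunits of the protein that coats single-stranded DNA, were lower with THZ531. RPA2 had 88.4 ± 5.75 FPKM with THZ531 and 103 ± 1.83 with YKL (-0.21), and RPA3 had 20.8 ± 0.82 against 26.7 ± 1.46 (-0.35; SD, n = 3 each). Both calls were lost under spike-in scaling (adjusted p = 0.742 and 0.163).

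The regulators of the G1 to S transition did not share a direction. Of 29 tested E2F factors, cyclins and CDK inhibitors 12 were higher with THZ531 and 11 lower, shares close to those of all tested genes, and the median of -0.04 turned to 0.14 under spike-in scaling, where 2 were lower. Cyclin A2 (CCNA2), which drives S phase, had 106, 109 and 109 FPKM with THZ531 and 52.1, 51.6 and 51.2 with YKL (1.05, adjusted p = 1.58e-18). E2F1 had 19.3, 17.1 and 18.1 FPKM against 13.4, 13.5 and 12.6 (0.44, adjusted p = 1.95e-06), with 25.6 ± 0.468 in DMSO cells. E2F2, another activating E2F factor, differed by 0.84 and SKP2, which targets the inhibitor p27 for destruction, by 0.54. Cyclin D1 (CCND1), the partner of CDK4 and CDK6, went the other way. It had 5.71, 5.52 and 5.64 FPKM with THZ531, 14.4, 14.3 and 14.6 with YKL and 4.09 ± 0.138 with DMSO (-1.22, adjusted p = 2.59e-17). CCND3 differed by -0.52 and CDK4 by -0.28, the latter losing its call under spike-in scaling (adjusted p = 0.411). The cyclins E, partners of CDK2, were a little lower with THZ531. CCNE1 was at 20.1 ± 0.694 FPKM against 23.6 ± 0.583 (-0.22, adjusted p = 0.000597) and CCNE2 at 16.0 ± 0.561 against 20.4 ± 1.24 (-0.33, adjusted p = 0.000503; SD, n = 3 each), and both calls were lost under spike-in scaling (adjusted p = 0.740 and 0.275).

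Genes of G2 and mitosis were higher with THZ531 almost throughout the list. Of 60 tested genes 56 were higher with THZ531 (93.3%) and 1 lower, 17 by at least 1 log2, with a median of 0.84 that was 0.63 under total FPKM scaling and 1.03 under spike-in scaling. Against DMSO, with the same control libraries in both comparisons, YKL lowered 57 of the 60 and raised 1 (background 33.5% lower and 31.8% higher), with a median of -0.72, and THZ531 lowered 9 and raised 24 (background 22.9% and 24%), with a median of 0.12. NCAPH, a condensin subunit that compacts mitotic chromosomes, had 19.6, 21.2 and 21.6 FPKM with THZ531 and 4.03, 4.15 and 4.03 with YKL. DMSO cells had 19.9 ± 0.176 FPKM of NCAPH, and the difference between the compounds was 2.10 ± 0.04 (SE; adjusted p = 1.51e-27). NCAPD2, whose promoter is shown above, had 112, 114 and 111 FPKM with THZ531, 54.6, 51.6 and 52.6 with YKL and 112 ± 0.852 with DMSO (1.07, adjusted p = 5.31e-23). KIF20A, a kinesin of cytokinesis, had 67.4, 69.9 and 68.6 FPKM with THZ531 and 25.9, 27.8 and 27.5 with YKL (1.31, adjusted p = 2.99e-22). The THZ531 libraries of NCAPH, NCAPD2 and KIF20A thus lay at the untreated level or close to it. The single lower gene was CDC25B, a phosphatase that activates CDK1. It had 27.7 ± 0.411 FPKM with THZ531 and 32.9 ± 1.62 with YKL (-0.24, adjusted p = 0.000123), both under the 42.7 ± 1.72 of DMSO (SD, n = 3 each), and its call was lost under spike-in scaling (adjusted p = 0.642).

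**Figure D1:**
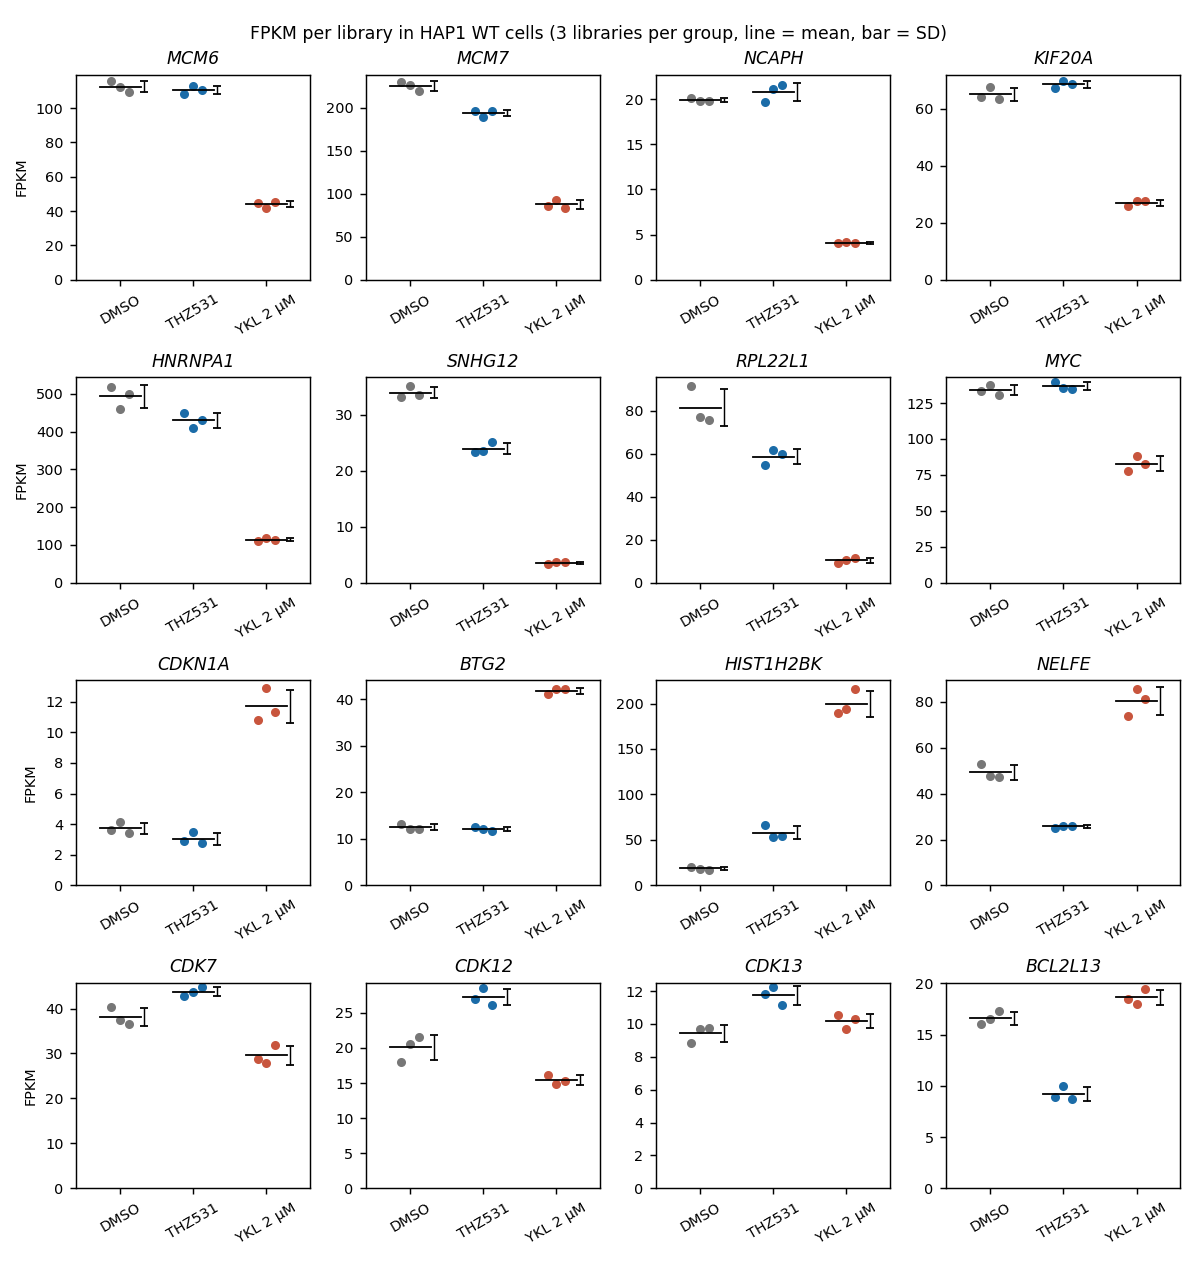
FPKM of 16 named genes in each WT library with DMSO, YKL 2 µM or THZ531 (points; line = mean, bar = SD, n = 3; each axis starts at 0). For MCM6, NCAPH and KIF20A the THZ531 points lie near the DMSO points and the YKL points under them, for BTG2 and CDKN1A the YKL points stand alone at the top, and for BCL2L13 the THZ531 points stand alone at the bottom.

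RNA-binding proteins that act on pre-mRNA were higher with THZ531. Of 20 hnRNP genes 18 were higher and 1 lower, with a median of 0.70 (0.49 under total FPKM scaling, 0.89 under spike-in scaling), and of 12 SR splicing factors 11 were higher and 0 lower, with a median of 0.50 (0.28 with 2 lower, and 0.68). HNRNPA1, which binds pre-mRNA and represses splice sites, had 448, 410 and 431 FPKM with THZ531, 110, 117 and 114 with YKL and 493 ± 29.6 with DMSO (SD, n = 3). Its difference of 1.91 ± 0.05 (SE; adjusted p = 1.01e-23) and the 3.35 of its processed pseudogene HNRNPA1P10 are uncertain as separate values, since reads may have been shared between near-identical copies. HNRNPL, a regulator of alternative splicing, had 260, 264 and 262 FPKM with THZ531 against 92.0, 92.7 and 93.5 with YKL (1.49, adjusted p = 8.86e-26). HNRNPH1 differed by 1.29 and SRSF2, an SR protein that promotes exon inclusion, by 1.29, from 272 ± 3.73 against 111 ± 5.06 FPKM (SD, n = 3 each). That their libraries did not overlap was a condition for naming these genes, met by 38.6% of tested genes on the THZ531 side. The exception in direction was HNRNPLL, a paralogue of HNRNPL, with 22.7, 23.0 and 22.0 FPKM under THZ531 and 34.4, 34.4 and 36.5 under YKL (-0.61, adjusted p = 2.03e-11).

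Cleavage and polyadenylation factors cut the nascent RNA and add its tail. Of 22 tested genes 13 were higher with THZ531 and 3 lower, with a median of 0.17 that turned to -0.04 under total FPKM scaling (4 higher, 6 lower). CPSF6, a subunit of cleavage factor I that favours distal sites, had 29, 28.3 and 28.4 FPKM with THZ531 and 11.9, 12.8 and 12.4 with YKL (1.15, adjusted p = 1.09e-20). PCF11, which couples cleavage to the end of transcription, had 18.4, 19.1 and 19.0 FPKM against 9.33, 9.01 and 9.05 (0.97, adjusted p = 2.84e-20), and 15.0 ± 0.381 with DMSO. For PCF11 the THZ531 libraries lay above the untreated level and the YKL libraries under it. CPSF7 differed by 0.74. CSTF2T, a paralogue of the cleavage stimulation factor CSTF2, was lower with THZ531, at 8.25 ± 0.191 FPKM against 13.0 ± 0.304 (-0.59, adjusted p = 8.85e-13).

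Small nucleolar RNA host genes, whose introns release the RNAs that guide rRNA modification, and ribosomal protein genes were higher with THZ531 than with YKL. Of 18 host genes 16 were higher and 0 lower, with a median of 0.85 (0.63 under total FPKM scaling, 1.03 under spike-in scaling). SNHG12 had 23.3, 23.5 and 25.1 FPKM with THZ531, 3.38, 3.62 and 3.70 with YKL and 33.9 ± 1.03 with DMSO (2.45 ± 0.09 SE, adjusted p = 2.15e-21). SNHG1 had 170, 180 and 184 FPKM with THZ531 against 53.6, 60.3 and 56.5 with YKL (1.64, adjusted p = 6.63e-20), and SNHG4 differed by 1.98. For SNHG12, SNHG1 and SNHG4 both compounds lowered the level against DMSO, with differences of -0.49, -0.35 and -0.29 for THZ531 and -2.94, -1.99 and -2.27 for YKL. Of 81 ribosomal protein genes 75 were higher with THZ531 (92.6%) and 0 lower, with a median of 0.56 that was 0.34 under total FPKM scaling and 0.74 under spike-in scaling. Total scaling called 3 of them lower. Against DMSO, with shared control libraries, THZ531 lowered 44 of the 81 and raised 1 (background 22.9% and 24%), with a median of -0.19. YKL lowered 79 and raised 0 (background 33.5% and 31.8%), with a median of -0.73. RPL5, which carries 5S rRNA into the large subunit, had 1579, 1731 and 1749 FPKM with THZ531 and 768, 757 and 860 with YKL (1.08, adjusted p = 2.92e-14). RPS4X of the small subunit had 2135 ± 54.5 FPKM against 1141 ± 58.0 (0.90; SD, n = 3 each). RPL22L1, a paralogue of RPL22 counted among the 81, had 54.8, 61.6 and 59.9 FPKM with THZ531 and 9.32, 10.5 and 11.4 with YKL (2.39, adjusted p = 2.97e-20). Ribosomal protein genes have many processed copies in the genome, and the labels do not say how the authors divided such reads.

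Clustered histone genes, whose normal messages end in a stem-loop and carry no poly(A) tail, were higher with YKL in this poly(A)-selected RNA. Of 72 such genes in the list 36 passed the filter on low values. A gene could pass through the treatment in which it is high, which fixes part of the direction. Among the 36, 24 were called lower with THZ531 and 1 higher, with a median of -1.04. Of the 13 with at least 1 FPKM in each of the 6 libraries, 12 were lower and 0 higher. HIST1H2BK, an H2B gene known to give polyadenylated message as well, had 65.9, 53.7 and 54.1 FPKM with THZ531, 189, 194 and 216 with YKL and 18.7 ± 1.74 with DMSO (-1.77 ± 0.08 SE, adjusted p = 5.30e-19). HIST1H2BD had 6.14, 5.11 and 5.28 FPKM against 37.4, 34.6 and 36.3 (-2.51, adjusted p = 5.19e-13), and HIST2H2BE had 3.84 ± 0.358 against 14.7 ± 0.305 (-1.70; SD, n = 3 each). In HIST1H2BK and HIST2H2BE both compounds stood above DMSO, by 1.58 and 1.02 for THZ531 and by 3.35 and 2.73 for YKL. Reads may be shared between histone genes of near-identical sequence, which makes the value of any one of them uncertain.

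Genes reported as p53 targets were more often higher with YKL. Of 28 tested members 16 were lower with THZ531 and 5 higher, with a median of -0.31 that was -0.51 under total FPKM scaling and -0.14 under spike-in scaling, where 9 were lower. HAP1 cells are known to carry a dominant-negative p53 allele, and the list is used here as a list of genes only. CDKN1A, which encodes the CDK inhibitor p21, had 2.89, 3.49 and 2.74 FPKM with THZ531, 10.8, 12.9 and 11.4 with YKL and 3.72 ± 0.351 with DMSO (-1.65 ± 0.10 SE, adjusted p = 8.02e-16). BTG2, an antiproliferative cofactor of mRNA deadenylation, had 12.5, 12.2 and 11.6 FPKM with THZ531, 41.1, 42.2 and 42.3 with YKL and 12.5 ± 0.590 with DMSO (-1.71, adjusted p = 3.99e-21). Against DMSO, THZ531 gave -0.23 and -0.05 for CDKN1A and BTG2 and YKL gave 1.42 and 1.66. TP53I3, a quinone oxidoreductase, had 6.85 ± 0.171 FPKM with THZ531, 17.6 ± 0.848 with YKL and 13.0 ± 1.39 with DMSO (SD, n = 3 each), so that the compounds moved it apart from either side. The genes higher with THZ531 included MDM2, the ubiquitin ligase of p53, at 17.2 ± 1.28 against 11.7 ± 0.705 FPKM (0.52, adjusted p = 4.79e-10), TRIAP1 (0.76) and AEN (0.54).

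DNA repair genes described as CDK12-dependent were mostly higher with the CDK12 and CDK13 inhibitor than with YKL. Of 38 tested genes 26 were higher with THZ531 and 3 lower, with a median of 0.27. The median was 0.08 under total FPKM scaling, where 17 were higher and 9 lower, and 0.45 under spike-in scaling. Against DMSO, with shared control libraries, THZ531 raised 14 of the 38 and lowered 7 (background 24% and 22.9%). YKL raised 4 and lowered 24 (background 31.8% and 33.5%). FANCA, a core subunit of the Fanconi anaemia ligase, had 21.7, 23.4 and 22.8 FPKM with THZ531, 7.90, 7.91 and 7.70 with YKL and 13.2 ± 0.644 with DMSO (1.42 ± 0.04 SE, adjusted p = 1.18e-22). In FANCA the THZ531 libraries stood above DMSO and the YKL libraries under it. FANCD2, the target of that ligase, had 26.9 ± 1.29 FPKM against 11.4 ± 0.765 (1.17) and MSH6, a mismatch recognition subunit, 82.0 ± 3.40 against 41.7 ± 1.79 (0.96; SD, n = 3 each). BRCA1, which acts in homologous recombination, had 11.8, 12.4 and 12.6 FPKM with THZ531 and 12.9, 12.2 and 12 with YKL, both under the 17.2 ± 0.760 of DMSO. Its difference of -0.01 had a 95% interval of -0.12 to 0.10 (adjusted p = 0.866), and under total FPKM scaling it was called at -0.22. ATM, a kinase of the double-strand break response, gave -0.14 (95% interval -0.32 to 0.04, adjusted p = 0.155), called at -0.33 under total FPKM scaling and at -0.21 with GC and length trends removed. ATR, a kinase of the replication stress response, was lower with THZ531 (-0.26), a call that spike-in scaling lost (adjusted p = 0.427).

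The target kinases themselves were higher with THZ531 than with YKL. CDK7 had 42.7, 43.7 and 44.7 FPKM with THZ531, 28.8, 28.0 and 31.9 with YKL and 38.2 ± 2.01 with DMSO (0.55 ± 0.06 SE, adjusted p = 2.43e-10). Its partners differed less. MNAT1 gave 0.25 (adjusted p = 0.00662), lost under total FPKM scaling (adjusted p = 0.642). CCNH gave 0.15 (adjusted p = 0.0499), a call lost when any of 5 of the 6 libraries was left out (adjusted p 0.0672 to 0.205) and turned to -0.07 under total FPKM scaling. GTF2H3, a core TFIIH subunit, had 24.4 ± 0.575 FPKM against 14.9 ± 0.192 (0.68; SD, n = 3 each). Of the 10 genes of the CDK-activating kinase and TFIIH 5 were higher and 0 lower, with a median of 0.14 that turned to -0.07 under total FPKM scaling (3 higher, 4 lower), and 3 were higher when THZ531 replicate 3 was left out. CDK12 had 27.0, 28.5 and 26.2 FPKM with THZ531, 16.2, 14.8 and 15.3 with YKL and 20.1 ± 1.81 with DMSO (0.78 ± 0.06 SE, adjusted p = 1.05e-13). For CDK12 the THZ531 libraries lay above the untreated level and the YKL libraries under it. CDK13 had 11.8, 12.3 and 11.1 FPKM against 10.5, 9.70 and 10.3 (0.19, adjusted p = 0.00445) and turned to -0.01 under total FPKM scaling. Cyclin K (CCNK) had 41.5 ± 1.10 against 34.4 ± 0.412 (0.26; SD, n = 3 each), a call that total FPKM scaling lost (adjusted p = 0.553).

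The rest of the elongation machinery was divided. Of 31 tested P-TEFb, pausing and elongation genes 12 were higher with THZ531 and 9 lower, with a median of 0.05 that turned to -0.16 under total FPKM scaling (7 higher, 16 lower). NELFE, the RNA-binding subunit of the pausing factor NELF, had 25.1, 26.0 and 26.0 FPKM with THZ531, 73.9, 85.7 and 81.3 with YKL and 49.2 ± 3.14 with DMSO (-1.60 ± 0.06 SE, adjusted p = 7.64e-21). NELFE thus lay under the untreated level with THZ531 and above it with YKL. CDK9, the kinase of P-TEFb, had 14 ± 0.275 FPKM against 21.2 ± 1.06 (-0.56; SD, n = 3 each). LARP7 and HEXIM1, which hold P-TEFb inactive in the 7SK particle, went the other way. LARP7 had 46.8, 49.3 and 51.0 FPKM against 26.4, 26.9 and 28.8 (0.82, adjusted p = 6.73e-14). HEXIM1 had 12.1, 11.5 and 12 FPKM with THZ531 and 7.92, 7.73 and 8.03 with YKL, the latter at the DMSO level of 7.90 ± 0.658 (0.53, adjusted p = 1.21e-11). Of 12 RNA polymerase II subunits 4 were higher (33.3%) and 3 lower (25%). Their median of 0.12 turned to -0.10 under total FPKM scaling (1 higher, 5 lower). POLR2A, the subunit that carries the C-terminal domain, had 80.9, 76.1 and 73.2 FPKM with THZ531, 116, 116 and 110 with YKL and 57.5 ± 7.09 with DMSO (-0.56, adjusted p = 1.13e-07). Both compounds therefore stood above DMSO in POLR2A, YKL more so. POLR2G gave -0.66 and POLR2D 0.34.

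Among stress lists, the integrated stress response and aminoacyl-tRNA synthetases were mostly higher with THZ531 than with YKL, while heat shock chaperones and NRF2 targets were divided. Over all tested genes 35.1% were higher and 33.1% lower. Of 34 tested integrated stress response genes 22 were higher with THZ531 and 4 lower, with a median of 0.36 (0.14 under total FPKM scaling, 8 lower, and 0.54 under spike-in scaling). Against DMSO, with shared control libraries, both compounds lowered more of this list than they raised. THZ531 lowered 20 and raised 6 (background 22.9% and 24%), with a median of -0.24. YKL lowered 28 and raised 5 (background 33.5% and 31.8%), with a median of -0.57. ATF4, the transcription factor of that response, had 288, 278 and 288 FPKM with THZ531, 149, 164 and 152 with YKL and 391 ± 20.2 with DMSO (0.87, adjusted p = 2.75e-18). Its targets ASNS, asparagine synthetase, and ATF5 gave 1.14 and 1.40. The response also has PPP1R15A, which restores translation, at 6.64 ± 0.557 against 12.6 ± 0.881 FPKM (-0.83; SD, n = 3 each), and ATF3 (-0.53) and DDIT4 (-0.67). Of 20 aminoacyl-tRNA synthetases, which charge tRNAs, 17 were higher and 1 lower, with a median of 0.32 (0.10 under total FPKM scaling, where 10 were higher and 3 lower), GARS giving 0.53. The lower one was WARS (-0.12), which turned to 0.06 under spike-in scaling. Against DMSO, THZ531 lowered 9 synthetases and raised 4, and YKL lowered 18 and raised 0. Of 22 heat shock chaperones 11 were higher and 6 lower, with a median of 0.17 that turned to -0.05 under total FPKM scaling (10 lower). CRYAB, a small heat shock protein, had 22.8, 20.1 and 20.1 FPKM with THZ531 against 6.79, 7.47 and 6.34 with YKL (1.49, adjusted p = 4.25e-10). The inducible HSPA1A had 18.3, 16.8 and 15.6 FPKM with THZ531, 39.6, 43.3 and 36.9 with YKL and 18.7 ± 2.74 with DMSO (-1.19, adjusted p = 6.77e-12). HSPA1A and its near-identical neighbour HSPA1B (-0.87) may share reads. Of 25 tested NRF2 targets 11 were higher and 8 lower, with a median of 0.11 that turned to -0.11 under total FPKM scaling. The quinone reductase NQO1 had 24.0, 24.6 and 24.1 FPKM with THZ531 and 57.9, 55.1 and 55.3 with YKL (-1.18, adjusted p = 1.03e-17), while PGD of the pentose phosphate pathway gave 0.79. Of 28 cholesterol genes 15 were higher and 3 lower, with a median of 0.15 that turned to -0.06 under total FPKM scaling (10 lower), INSIG1, which retains SREBP precursors in the endoplasmic reticulum, giving 0.98 and the sterol reductase TM7SF2 at 8.41 ± 0.993 against 17.8 ± 1.5 FPKM (SD, n = 3 each). Of 75 nuclear oxidative phosphorylation genes 22 were higher and 19 lower, under the background in both directions, with 9 and 43 under total FPKM scaling and 36 and 6 under spike-in scaling. Of 13 mitochondrially encoded genes, 0 were in the table under the symbols searched.

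The lists of signalling and survival genes held calls in both directions, as did all tested genes (35.1% higher with THZ531 and 33.1% lower). Of 33 tested immediate early genes 9 were higher with THZ531 and 10 lower, with a median of -0.12 that turned to 0.01 under spike-in scaling, while total FPKM scaling called 21 lower. MYC, which drives growth genes, had 140, 135 and 135 FPKM with THZ531, 77.8, 88.1 and 82.3 with YKL and 134 ± 3.54 with DMSO (0.72, adjusted p = 2.51e-13). KLF10 (-0.81) and ID2 (-1.07) were lower. Of 19 tested YAP and TEAD targets 1 was higher and 8 lower, with a median of -0.11 that turned to 0.05 under spike-in scaling. CYR61, a matricellular protein, had 39.3, 41.3 and 41.4 FPKM with THZ531 against 100.3, 103 and 99.5 with YKL (-1.29, adjusted p = 3.95e-21). Of 16 tested BCL2 family genes 5 were higher and 6 lower, with 1 and 10 under total FPKM scaling. BCL2L13, a mitochondrial BCL2-like protein, had 8.88, 10.0 and 8.76 FPKM with THZ531, 18.5, 18.0 and 19.5 with YKL and 16.6 ± 0.649 with DMSO (-0.94, adjusted p = 3.53e-16). BAX, the effector of mitochondrial permeabilisation, had 49.9 ± 1.43 against 74.8 ± 1.76 FPKM (-0.57; SD, n = 3 each), with 85.9 ± 1.12 in DMSO cells. In BCL2L13 and BAX it was THZ531 that stood well under DMSO. MCL1, a short-lived survival protein, had 60.3, 59.0 and 58.2 FPKM against 61.0, 59.2 and 58.8, a difference of -0.01 with a 95% interval of -0.11 to 0.09 (adjusted p = 0.844), called at -0.23 under total FPKM scaling. Of 20 tested interferon response genes 9 were higher and 5 lower, with a median of 0.12 that turned to -0.08 under total FPKM scaling (5 higher, 9 lower). Of 7 tested NF-kB target and cytokine genes 2 were higher and 1 lower, with 3 lower under total FPKM scaling. CCL2, a monocyte chemokine, had 13.9, 14.8 and 17.3 FPKM with THZ531, 5.70, 5.86 and 5.96 with YKL and 6.21 ± 0.329 with DMSO (1.25, adjusted p = 5.13e-12), and its YKL level differed from DMSO by -0.08 (adjusted p = 0.543). Of 5 tested blood cell markers 3 were higher and 0 lower, a count of 0 to 3 when single libraries were left out. Of 10 tested epithelial and fibroblast markers 4 were higher and 2 lower, the smooth muscle actin gene ACTA2 at 1.66 ± 0.158 against 9.84 ± 0.408 FPKM (-2.03; SD, n = 3 each).

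**Figure D2:**
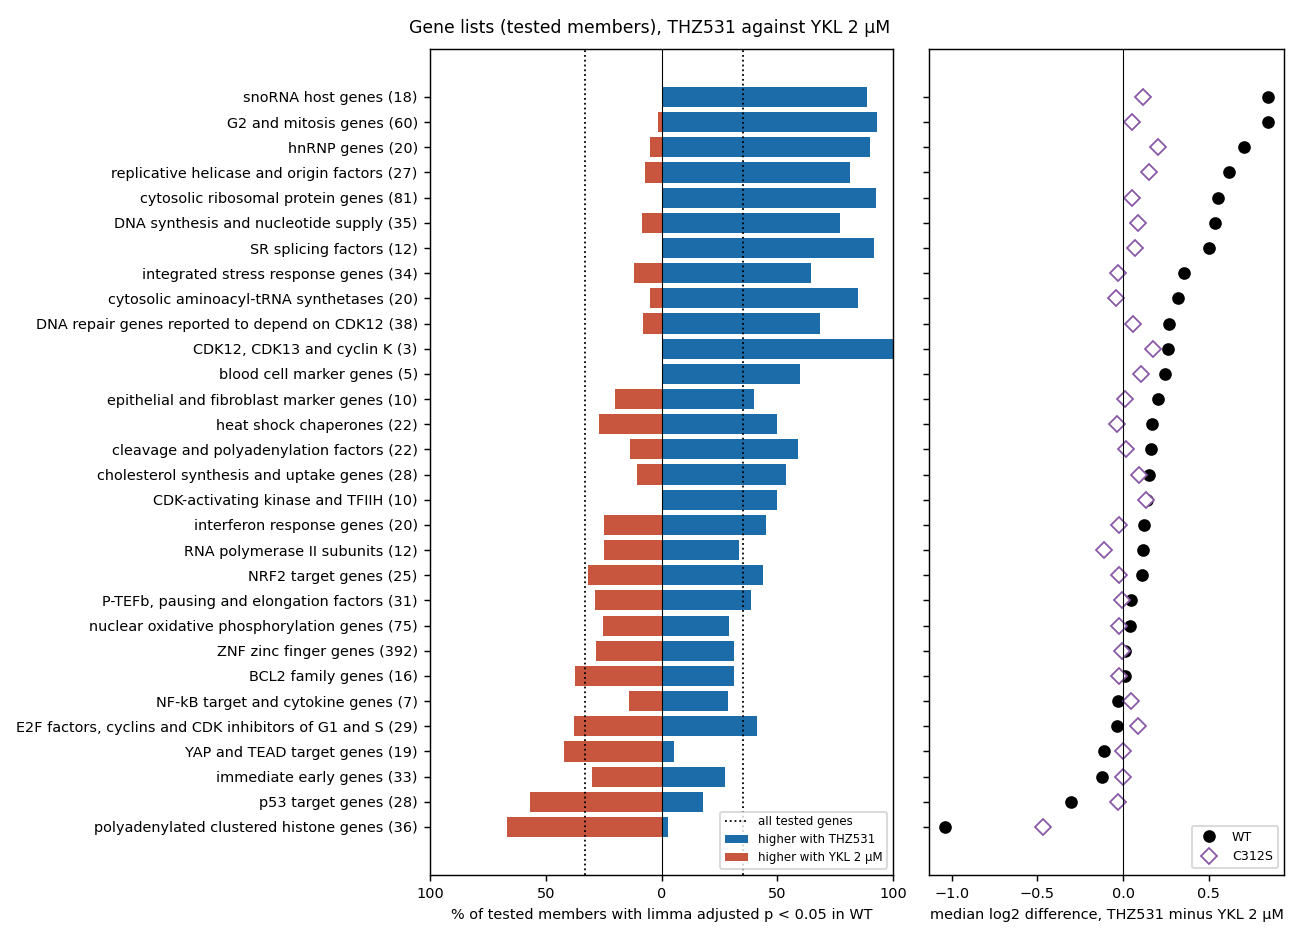
Left, percent of the tested members of each gene list (number in brackets) called higher with THZ531 or with YKL 2 µM in WT cells, with dotted lines at the shares of all tested genes (35.1% and 33.1%). Right, the median log2 difference of each list in WT and in C312S cells. The lists at the top, from snoRNA hosts to SR factors, have WT medians from 0.50 to 0.85 and C312S medians from 0.05 to 0.21, and medians between -0.12 and 0.20 in WT include those that change sign with the scaling of the libraries.

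Among the 8 named genes furthest to the YKL side, TLCD1, a plasma membrane protein, had 3.43, 3.47 and 2.52 FPKM with THZ531, 38.3, 43.3 and 39.5 with YKL and 10.8 ± 0.928 with DMSO (-3.33 ± 0.12 SE, adjusted p = 7.64e-21). TLCD1 moved away from DMSO in opposite directions under the 2 compounds. MXD4, which opposes MYC by binding MAX, had 3.31, 2.92 and 2.78 FPKM with THZ531, 19.0, 19.9 and 18.5 with YKL and 2.75 ± 0.0545 with DMSO (-2.33, adjusted p = 5.88e-21). PCYOX1L, a prenylcysteine oxidase-like gene, had 4.17 ± 0.319 FPKM against 26.4 ± 0.846 (-2.41), and CTSO, a lysosomal cysteine protease, 0.396 ± 0.067 against 5.93 ± 0.227 (-2.31; SD, n = 3 each). IDNK (-2.50), ZP3 (-2.41) and the antisense gene KANSL1-AS1 (-2.36) complete the set with HIST1H2BD. On the THZ531 side the set held HNRNPA1P10, SNHG12, RPL22L1, NCAPH, SNHG4, HNRNPA1, LOC729739 (1.97) and RABGGTB, a subunit of the Rab geranylgeranyl transferase and itself a host of small nucleolar RNAs, with 88.6 ± 0.762 against 23.4 ± 0.875 FPKM (1.88; SD, n = 3 each).

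The 2 sets of genes that differed by at least 1 log2 were unlike in level and structure, by annotation from GENCODE release 29. GC and exons are those of the longest annotated transcript of a gene. The 242 genes higher with THZ531 had a median of 32.9 FPKM in DMSO cells, 45.9% GC and 10 exons, and 7.53% were long noncoding. The 451 genes higher with YKL had a median of 4.09 FPKM in DMSO cells, 53.4% GC and 5 exons, 14% were long noncoding and 18.4% were under 1 FPKM in DMSO cells. All tested genes had a median of 10.3 FPKM, 48.7% GC and 8 exons, and 3.46% were long noncoding. The level of a gene bears on the scale used, since log2(FPKM + 1) shrinks differences of low genes. A low gene could also pass the filter through the treatment in which it is high, which may fix part of this contrast. With at least 1 FPKM in each of the 6 libraries, 208 genes were higher with THZ531 and 313 higher with YKL by at least 1 log2.

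**Figure D3:**
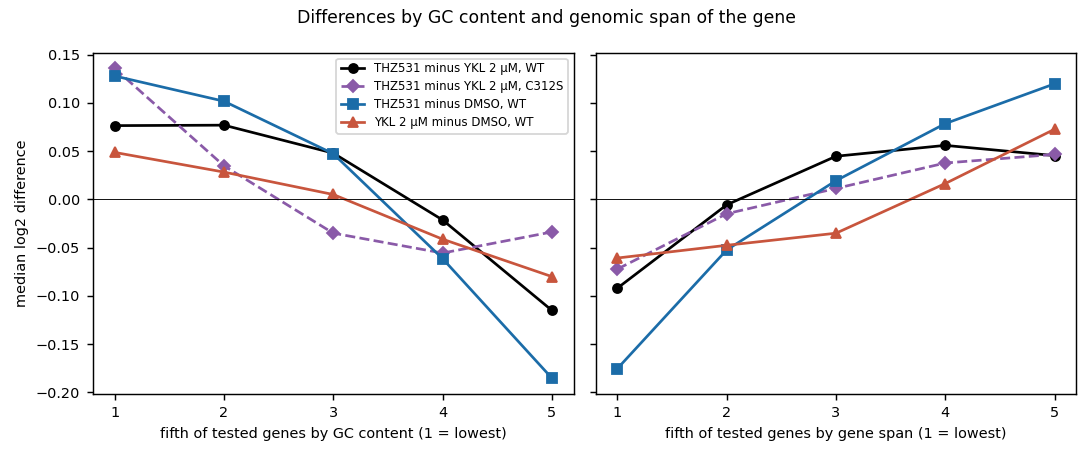
Median log2 difference of tested genes in 5 equal groups by GC content (left) and by gene span (right), 2513 genes per point. Lines show THZ531 minus YKL 2 µM in WT and in C312S cells, and each compound minus DMSO in WT cells. With span the WT comparison of the compounds goes from -0.09 in the group of shortest genes to 0.05 in that of the longest, and with GC from 0.08 in the lowest group to -0.12 in the highest.

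Gene span and GC content went with the difference in WT cells to a small degree. Over 12565 genes with annotation, divided into 5 equal groups, the median was -0.09 in the group with the shortest span and 0.05 in the longest, and 40.5% against 28.2% of those groups were called lower with THZ531. By GC content the median was 0.08 in the lowest group and -0.12 in the highest. Across genes, which are not independent, Spearman's rho was 0.101 with span and -0.163 with GC. In C312S cells rho of the same comparison was further from 0, at 0.215 and -0.325. For THZ531 minus DMSO in WT cells rho was 0.387 and -0.465, and for YKL minus DMSO 0.122 and -0.105, comparisons that share the DMSO libraries. Of 392 tested ZNF zinc finger genes 122 were higher with THZ531 (31.1%) and 111 lower (28.3%), both under the background, with 65 and 178 under total FPKM scaling and 65 lower under spike-in scaling. ZNF692 (1.31), ZNF589 (1.19) and ZNF276 (-0.92) were among those that the rule named.

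In the C312S line the 2 treatments left the cells closer to each other on the deposited scale. In that line 4347 genes were called (33.9%), 4 higher with THZ531 by at least 1 log2 (0.0312%) and 17 lower (0.133%), and the median absolute difference over all tested genes was 0.126 log2, beside 0.292 in WT. Of the 8736 genes called in WT 3064 were also called in C312S in the same direction, which is 35.1% of the WT calls and 70.5% of the C312S calls, and 402 were called in opposite directions. The 2 comparisons share no library, although their fit shares 1 estimate of the spread. The 242 WT genes higher with THZ531 by at least 1 log2, with a WT median of 1.19, had a median of 0.27 in C312S, and the 451 lower genes, with -1.21, had -0.40. Those WT values chose the sets and are a description. The difference between the lines was itself called for 6246 genes (48.7%), 3172 with a larger value in WT and 3074 with a smaller one. It was called at 3842 genes under spike-in scaling. That scaling also raised the C312S calls to 7834, above the 7672 it gave in WT, with 7555 higher with THZ531 (96.4% of calls) and 279 lower. The all-gene median was then 0.31 in C312S beside 0.18 in WT, and 31 genes were higher and 12 lower by at least 1 log2 in C312S, beside 484 and 411 in WT.

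By group, the cell cycle and ribosomal differences of WT were small in C312S. The G2 and mitosis list had a C312S median of 0.05 with 22 of 60 higher and 6 lower (background 17.3% and 16.6%), and 55 of the 60 had a larger value in WT (background 24.8%). Ribosomal protein genes had a median of 0.05, with 10 of 81 higher, and 73 had a larger value in WT. MCM6 had 125 ± 6.69 FPKM with THZ531 and 112 ± 0.301 with YKL in C312S cells (0.15), and its difference between the lines was 1.16 (95% interval 1.05 to 1.27, adjusted p = 3.9e-17). KIF20A turned sign, with 59.8 ± 2.77 against 71.6 ± 5.61 FPKM in C312S (-0.25, adjusted p = 2.34e-05). MXD4 had 2.95 ± 0.230 against 2.64 ± 0.202 FPKM there (0.12, adjusted p = 0.295; SD, n = 3 each).

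Other differences were also called in the C312S line, many of them at a smaller size. Of 20 hnRNP genes 15 were higher with THZ531 there, HNRNPA1 at 508 ± 43.5 against 336 ± 12.6 FPKM (0.59). The list median was 0.21 beside 0.70 in WT, and 18 of the 20 had a larger value in WT by the test between lines. TLCD1 had 4.37 ± 0.598 FPKM with THZ531 and 14.2 ± 1.05 with YKL (-1.51, adjusted p = 1.14e-10; SD, n = 3 each). Of 36 tested histone genes 14 were lower with THZ531 (background 16.6%), with a median of -0.47 beside -1.04 in WT. By that test 12 had a smaller value in WT than in C312S (background 24%), and 24 were not called. For CDK4, ZNF740 and CDK13 the values in the 2 lines were close. CDK4 gave -0.33 in C312S beside -0.28 in WT, with a difference between them of 0.05 (95% interval -0.06 to 0.15, adjusted p = 0.45). ZNF740 gave -0.48 beside -0.51 and CDK13 0.17 beside 0.19. Among genes that THZ531 held under DMSO in WT, BCL2L13 gave -0.57 in C312S, ORC3 -0.53 and GINS4 -0.61, each smaller than in WT by the test between lines (adjusted p = 0.000119, 0.0283 and 0.000428).

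**Figure D4:**
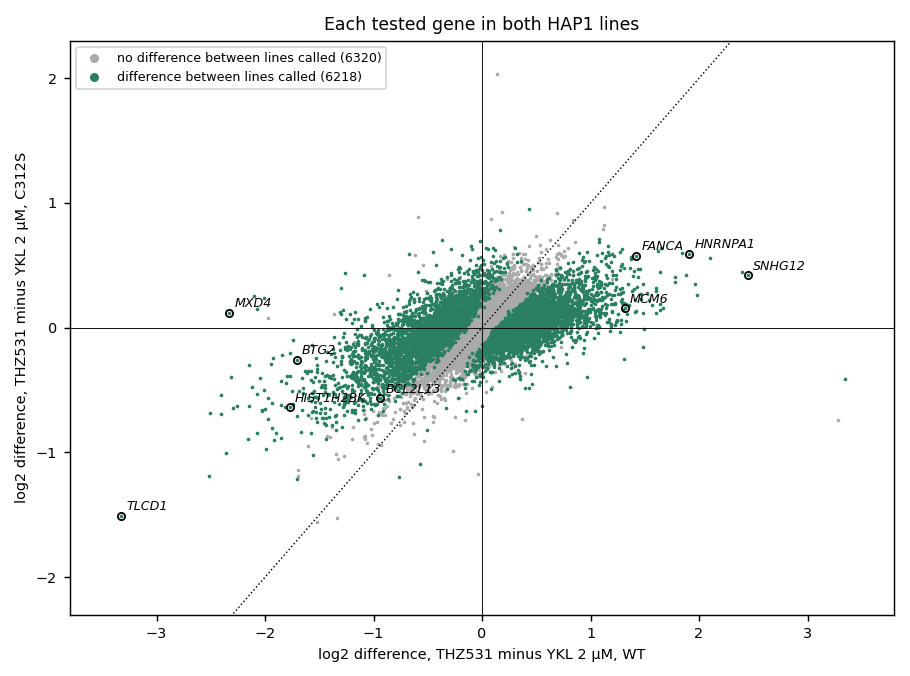
Log2 difference of THZ531 minus YKL 2 µM in WT (x) and in C312S cells (y) for 12538 tested genes without short RNA rows or rows with an exact 0, green where the difference between the lines was called (6218 genes) and grey where it was not (6320). The dotted line marks equal values, and most genes with large WT values lie nearer to 0 in C312S and MXD4 lies close to 0 there.

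At the lower YKL dose the comparison with the same THZ531 libraries called 8601 genes (67.1%), 173 higher with THZ531 by at least 1 log2 (1.35%) and 441 lower (3.44%). Spike-in scaling turned that balance round, with 2468 higher and 105 lower by at least 1 log2. It called 9781 genes higher and 800 lower in all, with an all-gene median of 0.65. The shared THZ531 libraries tie these values to those at 2 µM, and they are set side by side only. Medians with YKL at 500 nM were 0.52 for the G2 and mitosis list (0.84 at 2 µM), 0.47 for ribosomal protein genes (0.56), 0.67 for hnRNP genes (0.70) and -0.84 for histone genes (-1.04). YKL levels were 41.3 ± 0.895 FPKM at 500 nM and 27.1 ± 1.03 at 2 µM for KIF20A, 49.0 ± 0.189 and 43.9 ± 1.86 for MCM6, and 43.5 ± 0.865 and 40.4 ± 2.62 for TLCD1 (SD, n = 3 each).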

How the data were processed

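Polyadenylated RNA of 42 libraries in 14 groups was measured, and the deposited values are FPKM per gene. HISAT2 2.0.4, Cufflinks 2.2.1, Cuffnorm and the build hg19 are named, per the submitters' processing notes, with no order. Groups came from the labels, and each column was matched through its sample's description, with 0 columns unmatched. The table has 26320 rows, 92 of them spike-in RNAs. The deposited FPKM give no read counts, so no count model was used, and exact 0s may be failed estimates (245 tested rows hold one in the 6 libraries).

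Differences were fitted with limma 3.58.1 (R 4.3.3, with the data.table package, version 1.17.8) with a trend on log2(FPKM + 1), over 14 group means and all 42 libraries, for genes that reached 1 FPKM in 3 or more libraries. A gene was called at a Benjamini-Hochberg adjusted p under 0.05, and intervals are 95%. Spike-in levels use 23 spike-in rows and 10376 genes above 1 FPKM in all libraries. The members and lists were chosen with earlier results of these data known. The genes named were called, with libraries apart, at least 5 FPKM in a group, no exact 0 and no short RNA row: the 8 furthest in each direction and up to 3 per direction from each list, plus a set open to naming whatever their call. Library scaling, filters, the pseudocount (0.1), a replicate block, GC and length, and single libraries were varied. The fit was tested on simulated data of 12816 genes, with 200 changed among those with a mean above 5 FPKM over all libraries. It found 46% of those changed by 0.25 log2, 96% of those by 0.5, 94% by 1 and 96% by 2, with 7.78% false among 180 calls. Recovery of changes in lower genes was not tested. Some genes picked by this rule are left out of the text. Replicate numbers do not pair the libraries. Python 3.11.15 with pandas 2.3.3, numpy 2.4.6 and matplotlib 3.10.9 read the table and drew the plots.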

Additional observations from a re-analysis of the deposited data

Results flagged for a closer look

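The difference between THZ531 and YKL was tested for a difference between the WT and C312S lines in 33 named genes, the 16 furthest to either side and 17 genes open to naming whatever their call. It was called in 29 of them, with adjusted p of at most 0.0295 in limma, beside 48.7% of all tested genes. The 16 were chosen for their size in WT, so a smaller value in C312S is partly given by that choice. Values below are WT minus C312S on the log2 scale.

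On the THZ531 side of WT, the value was 3.76 for HNRNPA1P10, 2.03 for SNHG12, 1.95 for RPL22L1, 1.72 for SNHG4, 1.61 for LOC729739, 1.54 for NCAPH, 1.45 for RABGGTB and 1.31 for HNRNPA1. HNRNPA1P10 had -0.41 in C312S, which was not called (adjusted p = 0.126 in limma), beside 3.35 in WT. The other 7 kept the direction of WT. On the YKL side it was -2.45 for MXD4, -1.91 for CTSO, -1.87 for PCYOX1L, -1.82 for TLCD1, -1.82 for IDNK, -1.72 for ZP3, -1.36 for KANSL1-AS1 and -1.32 for HIST1H2BD. MXD4 had 0.12 in C312S, also not called (adjusted p = 0.295), and the other 7 were negative in both lines.

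Among the kinases and cell cycle regulators, the value was 0.59 for CDK12, 0.23 for CDK7, 0.23 for CCNK, 0.28 for E2F1, 0.53 for MYC and 0.50 for HEXIM1. It was -0.21 for CCNE1, -0.29 for POLR2A and -1.13 for CDKN1A. CCNE2 differed by -0.74, with -0.33 in WT and 0.41 in C312S. For FANCA the value was 0.84. BRCA1 gave 0.21 and MCL1 -0.18, although neither differed between the compounds in WT by the test, with -0.22 and 0.17 in C312S. No difference between the lines was called for MNAT1, CCNH, CDK13 and ATM.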

How the results depend on the processing

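Counts of calls moved by more than 1.5 times with 2 of the library scalings. Spike-in scaling called 7834 genes in C312S (7555 higher with THZ531 and 279 lower), 3842 for the difference between the lines (899 larger in WT) and 2411 genes lower with THZ531 in WT. It gave 9781 higher and 800 lower against YKL at 500 nM, 3306 calls for THZ531 against DMSO (1861 higher, 1445 lower) and 2313 genes higher for YKL against DMSO. Total FPKM scaling called 2550 genes higher in WT, 2724 higher against YKL at 500 nM, 1624 larger and 5232 smaller in WT for the difference between the lines, and 7235 higher and 1983 lower for YKL against DMSO. No other alternative moved the calls of these comparisons, in all or by direction, as far. Genes with at least 1 log2 numbered 382 higher and 843 lower with a pseudocount of 0.1. Leaving out single libraries gave 8238 to 8352 calls in WT (4209 to 4295 higher, 4015 to 4057 lower), 3358 to 4284 in C312S, 5751 to 6079 for the difference between the lines and 8103 to 8203 against YKL at 500 nM. A replicate block gave 8791 calls in WT. Libraries with the same replicate number had correlations of their deviations of -0.08, 0.03 and -0.05, so the numbers do not pair them.

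List medians that changed sign with total FPKM scaling were those of CDK-activating kinase and TFIIH (-0.0729), P-TEFb and elongation (-0.16), RNA polymerase II (-0.10), cleavage and polyadenylation (-0.0434), NRF2 (-0.11), heat shock (-0.0470), cholesterol (-0.0564), interferon (-0.0790), epithelial and fibroblast (-0.0058), nuclear oxidative phosphorylation (-0.179), BCL2 family (-0.202) and ZNF genes (-0.150). The last 3, with main medians of 0.0386, 0.0089 and 0.0129, also turned with median-ratio scaling (-0.0029, -0.0311 and -0.0170), ZNF genes with GC and length trends removed (-0.0230), and BCL2 family genes without THZ531 replicate 1 (-0.0058) or YKL replicate 3 (-0.01335). With spike-in scaling those of E2F factors and cyclins (0.14), immediate early genes (0.0122), YAP targets (0.0479) and NF-kB targets (-0.0295 to 0.0717) did so. NF-kB targets also turned with GC and length trends removed (0.0059) and without THZ531 replicate 1 (0.0143), and interferon genes did (-0.0016) with at least 1 FPKM in each of the 6 libraries. Named genes called in the main fit that changed sign, each without a call there, were CDK13 (-0.0113), NFKB1 (-0.0276), YAP1 (-0.0452), CCNH (-0.0666) and BST2 (-0.0253) with total FPKM scaling, and BCL2L1 (0.0608), PPP1CA (0.0233) and WARS (0.0608) with spike-in scaling. The cause was not tested. Of 2555 values of 160 named genes over 16 alternatives, 2497 kept their side of the threshold without a change of direction in a called value. A change of sign without a call in either fit was not counted as a change. By that rule, leaving out single libraries reversed 0 of 960 values and lost 14 calls. Total depth is unknown, and no limit was computed from it. In simulated data 46% of differences of 0.25 log2 were recovered. Those data had 200 changed genes, beside 8736 called in WT, so the adjusted p was stricter there and the share does not carry over. How many small differences were missed here was not tested.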
